A study of Homo sapiens with 4 samples.

Results

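The D-type cyclins (CCND1, CCND2, CCND3), the G1 kinases CDK4, CDK6 and CDK2, and the inhibitors CDKN1A, CDKN1B, CDKN1C and CDKN2B were examined in SUIT2 cells exposed to fb-PMT. Members were the transcript clusters (probe sets that each summarise a locus) whose platform gene symbol is one of these 10 names, and 10 of the 21448 tested clusters, 1 per gene, met that rule. The array set held 2 control arrays and 2 arrays from cells given 30 µM fb-PMT for 24 h, all of the same line, grown in RPMI medium with serum. The control samples are titled untreated, while the labels' protocol says that control cells were exposed to phosphate-buffered saline over the same time, and these were taken as the same group. fb-PMT is a polyethylene glycol conjugate of the thyroid hormone analog tetraiodothyroacetic acid that carries a fluorobenzyl group. It was made as an antagonist of the hormone's binding site on integrin αvβ3, and the series asks how it affects transcription that serves mitochondria. Nothing in the labels says that replicates were separate cultures, so each p-value measures only the spread between these arrays, which may be technical. In limma, the test used here, each gene's standard error also draws on the spread of all clusters. It can therefore exceed the gap between that gene's own replicates. A single cell line was used.

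Passage from G1 into DNA replication is set by kinases that need a cyclin partner. D-type cyclins bind CDK4 or CDK6 and start the phosphorylation of the retinoblastoma protein RB1, which releases E2F transcription factors. E2F then drives the genes of cyclin E, which with CDK2 completes the step. Inhibitors of the INK4 family, such as CDKN2B, bind CDK4 and CDK6, while those of the Cip/Kip family, CDKN1A, CDKN1B and CDKN1C, bind cyclin-kinase complexes and restrain CDK2. In pancreatic ductal adenocarcinoma the INK4 locus is often deleted.

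The labels call these cells glioblastoma, whereas SUIT-2 was derived from a pancreatic carcinoma. All 6 glial markers measured (GFAP, OLIG1, OLIG2, S100B, SOX10 and AQP4) lay under the negative controls on each of the 4 arrays. Of 6 epithelial markers, 5 were above them (KRT7, KRT8, KRT18, KRT19 and EPCAM), and CDH1 was below. "Below the negative controls" means under the 95th percentile of the array's 612 negative control probe sets on both arrays of a group, which lay between log2 values of 7.15 and 7.38. Genes with both groups below it get no fold. Over all tested clusters limma's test gave 21 with an adjusted p under 0.05 (0.0979%), all higher with fb-PMT, and 2399 with an unadjusted p under 0.05 (11.2%). Leaving out control replicate 1 reduced the 21 to 9, leaving out control replicate 2 reduced them to 5, and leaving out either fb-PMT replicate 1 or 2 left 1.

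None of the 10 G1 genes passed the test, in either direction (limma, Benjamini-Hochberg adjustment over all clusters, against 0.0979% of clusters called). An unadjusted p under 0.05 was reached by 2 of them, CDKN1B with higher and CCND2 with lower values, against 11.2% of all clusters. In 7 genes both fb-PMT arrays lay beyond both control arrays, 3 higher (CCND1, CCND3 and CDKN1B) and 4 lower (CCND2, CDK4, CDK6 and CDKN2B). The same was true of 42.6% of all clusters, 20.2% higher and 22.3% lower, so that such separation is common on these arrays. The median log2 difference of the 10 genes was -0.055, beside -0.017 over all clusters. CCND2, CDKN1C and CDKN2B had both groups below the negative controls, and the other 7 genes were above them on all 4 arrays. Of those 7, the groups of 5 did not overlap, against 50.1% of the clusters above the negative controls.

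**Figure D1:**
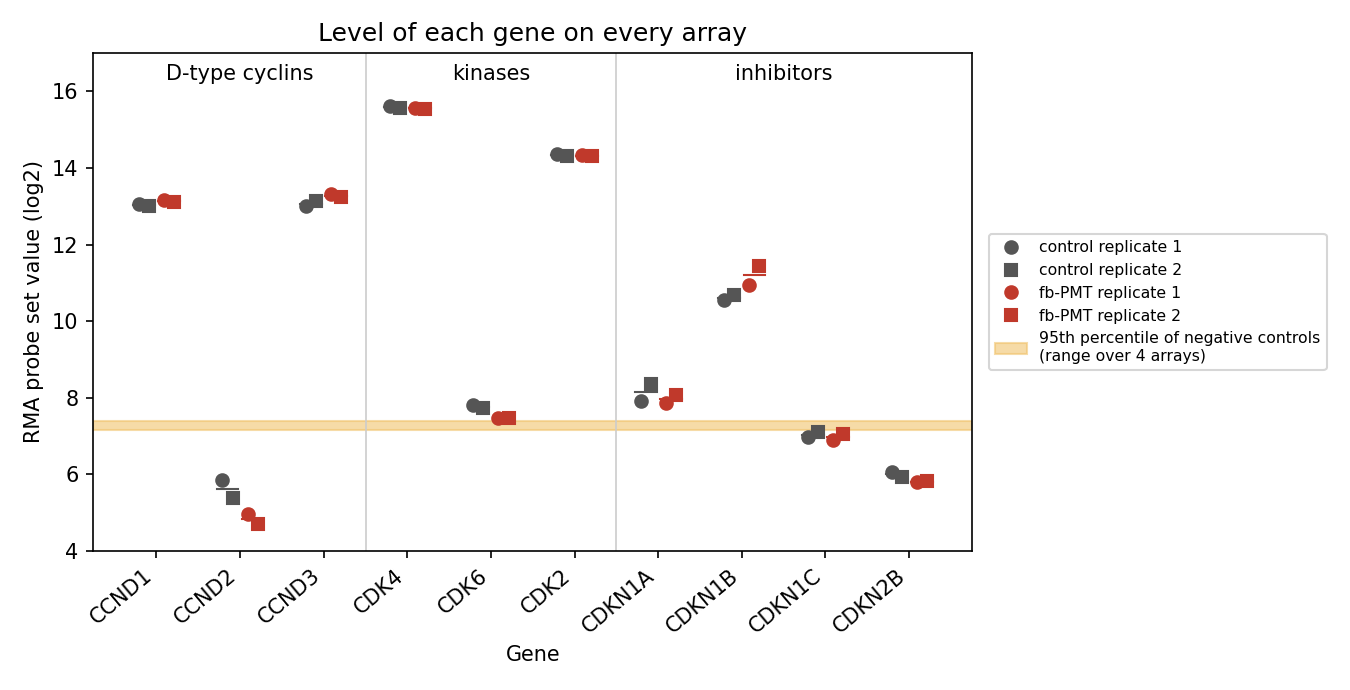
RMA probe set values (log2, vertical axis) of the 10 genes on each of the 4 arrays, with circles for replicate 1, squares for replicate 2, short lines for group means, and a band for the 95th percentile of the negative controls. CCND2, CDKN1C and CDKN2B lie under the band in both groups, and CDKN1B shows the widest gap between groups among the genes above it.

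Of the D-type cyclins, CCND1, the partner of CDK4 and CDK6 most often amplified in carcinomas, had log2 values of 13.05 and 13.01 in the control group and 13.16 and 13.11 with fb-PMT. The fb-PMT arrays were higher on both replicates, but the log2 difference of 0.11 (SE 0.15) did not pass limma's test (adjusted p = 0.833). Its 95% interval, here and elsewhere unadjusted for the number of genes, ran from 0.839-fold to 1.38-fold. CCND3, a cyclin that is prominent in lymphoid and differentiating cells, had values of 13.01 and 13.13 in the control group and 13.31 and 13.25 with fb-PMT. Its groups did not overlap either, and the log2 difference of 0.21 (SE 0.15, limma adjusted p = 0.646) had an interval of 0.894-fold to 1.49-fold. Both intervals include no difference and lie within 2-fold.

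CCND2, the D-type cyclin known from granulosa and B cells, read 5.84 and 5.39 in the control group and 4.96 and 4.71 with fb-PMT. All 4 values were under the negative controls. The log2 difference of -0.78 (SE 0.21, limma adjusted p = 0.332) was the largest of the 10 in size, and 2.2% of all clusters differed by more. It ran from -1.01 to -0.55 when 1 array was left out. Because both groups were below the negative controls, this is a difference between background-level signals and no fold is given. RefSeq places the antisense RNA gene CCND2-AS1 over the CCND2 locus, and that gene had no named cluster on the array.

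Of the kinases, CDK4, the main catalytic partner of D-type cyclins in epithelia, had log2 values of 15.62 and 15.58 in the control group and 15.56 and 15.54 with fb-PMT. The fb-PMT arrays were both below the control arrays. The log2 difference of -0.047 was smaller than its standard error, which draws on all clusters (SE 0.14, limma adjusted p = 0.936). Its 95% interval ran from 0.755-fold to 1.24-fold. The difference was -0.024 without control replicate 1 and -0.071 without control replicate 2. TSPAN31, a tetraspanin gene that overlaps CDK4 in RefSeq, had its own cluster with a log2 difference of 0.21 (limma adjusted p = 0.646). The 95% intervals of both genes include no difference, so whether the pair shares a direction is not settled.

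CDK6, the second kinase that D-type cyclins activate, had values of 7.81 and 7.72 in the control group and 7.48 and 7.47 with fb-PMT. These were just above the negative controls. Both fb-PMT arrays were lower, and the replicates differed from each other by less than the groups did. The log2 difference of -0.29 (SE 0.15, 1.22-fold lower) did not pass limma's test (adjusted p = 0.533), with an interval from 0.637-fold to 1.05-fold. It was -0.33 to -0.25 when 1 array was left out.

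CDK2, the kinase that cyclin E activates at the G1/S boundary, read 14.36 and 14.30 in the control group and 14.33 and 14.32 with fb-PMT. The fb-PMT values lay between the control values. The log2 difference of -0.0055 (SE 0.14, limma adjusted p = 0.993) was exceeded in size by 98.3% of all clusters, and its interval ran from 0.777-fold to 1.28-fold. It was 0.024 without control replicate 1 and -0.035 without control replicate 2, so it had no settled sign.

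Among the Cip/Kip inhibitors, CDKN1B, whose protein binds and inhibits cyclin E with CDK2 and accumulates in quiescent cells, had the largest difference of the 7 genes above the negative controls. It read 10.54 and 10.67 in the control group and 10.95 and 11.44 with fb-PMT. Both fb-PMT values were above both control values, with more spread between the fb-PMT replicates (SD 0.35) than between the controls (SD 0.09). The difference of 0.59 on the log2 scale (SE 0.21), or 1.5-fold with an interval of 1.05-fold to 2.15-fold, had an unadjusted p of 0.0325 in limma's test and did not pass after adjustment (adjusted p = 0.408). Without fb-PMT replicate 2 it was 0.34, and without fb-PMT replicate 1 it was 0.83. Of all clusters, 6% differed by more in size.

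CDKN1A, the inhibitor best known as a target of p53 and also induced by interferon signalling in some cells, read 7.93 and 8.36 in the control group and 7.87 and 8.07 with fb-PMT. The groups overlapped, and the control replicates differed by more than the group means. The log2 difference of -0.17 (SE 0.20, limma adjusted p = 0.796) had an interval from 0.629-fold to 1.25-fold, and it was -0.39 without control replicate 1 and turned to 0.044 without control replicate 2. CDKN1C, the imprinted member of the family, had values of 6.97 and 7.10 against 6.89 and 7.05, which overlapped and all lay under the negative controls. Its log2 difference was -0.063 (SE 0.16, limma adjusted p = 0.916), and it was 0.0015 without control replicate 2 and 0.019 without fb-PMT replicate 1.

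CDKN2B, the INK4 inhibitor induced by transforming growth factor beta in epithelial cells, read 6.06 and 5.94 in the control group and 5.80 and 5.83 with fb-PMT. Both fb-PMT values were lower, and all 4 were under the negative controls. The log2 difference was -0.19 (SE 0.15, limma adjusted p = 0.678), and no fold is given. Its neighbour CDKN2A, named after its values were seen, was also under the negative controls, at 5.39 and 5.60 in the control group and 5.66 and 5.09 with fb-PMT. The antisense gene CDKN2B-AS1 overlaps CDKN2B in RefSeq and had no named cluster. Array signals of this size cannot be told apart between a transcript at low level and none.

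**Figure D2:**
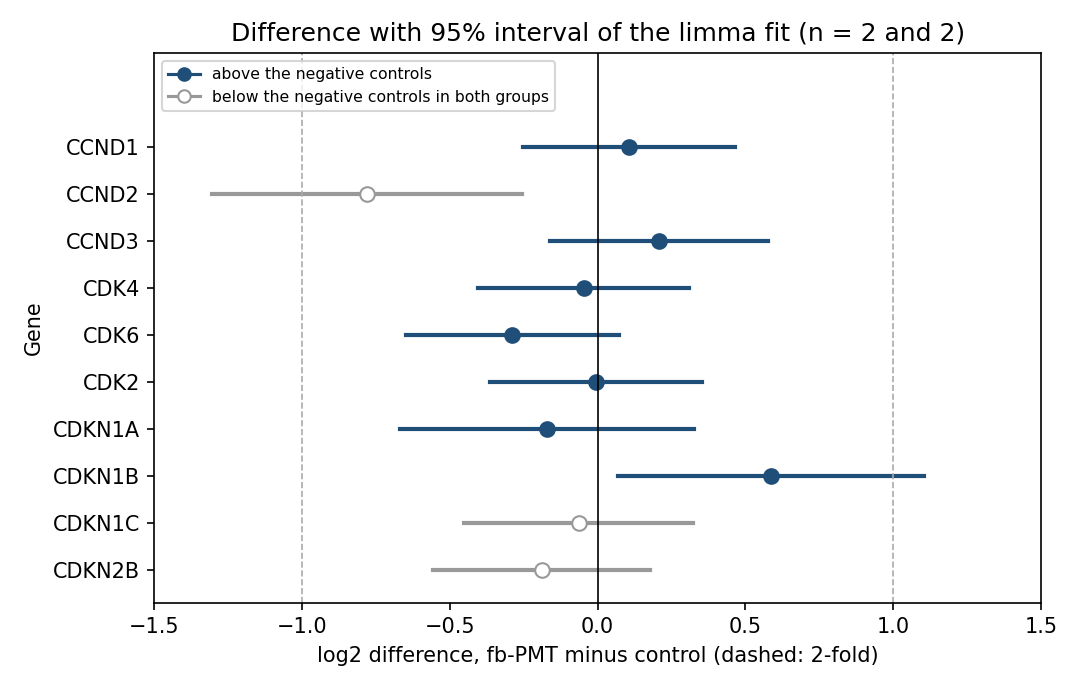
Log2 difference, fb-PMT minus control, of each gene (point) with its 95% interval from the limma fit (line), dashed lines at a 2-fold change, and open grey points for genes below the negative controls in both groups. The intervals of 8 genes stay between the dashed lines, while those of CDKN1B and CCND2 cross one of them.

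Besides the calls, the intervals of genes above the negative controls show how large a difference in array signal the fit leaves room for. CDK6 and CDKN1A lay near the negative controls, where RMA compresses differences, so their intervals do not bound a change in transcript. In 8 of the 10 genes the interval lay within a 2-fold difference either way, as it did in 87.2% of all clusters. CDKN1C and CDKN2B are among the 8, but their intervals describe background-level signals and put no bound on their transcripts. Among the 7 genes above the negative controls the interval lay within 2-fold for 6, all but CDKN1B, against 93% of the clusters above them. Standard errors of the 10 log2 differences ran from 0.14 to 0.21, beside a median of 0.175 over all clusters.

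CDKN1B had the largest difference above the negative controls, and CDKN1A is a family member whose groups overlapped. CDK4 holds E-boxes, the element that MYC binds. The 250 bases before the start of these genes are therefore shown. They are RefSeq promoter sequences of GRCh38.p14, at chr12:12717118-12717367 (+), chr6:36678464-36678713 (+) and chr12:57752311-57752560 (-), written 5′ to 3′ on the gene's strand. Capitals mark the GC box GGGCGG, bound by SP1 family factors, and the E-box CACGTG, each on either strand.
CDKN1B: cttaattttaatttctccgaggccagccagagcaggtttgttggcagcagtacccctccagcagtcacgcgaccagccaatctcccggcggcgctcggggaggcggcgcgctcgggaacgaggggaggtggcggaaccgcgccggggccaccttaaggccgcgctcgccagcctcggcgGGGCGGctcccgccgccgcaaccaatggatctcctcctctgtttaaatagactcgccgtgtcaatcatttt
CDKN1A: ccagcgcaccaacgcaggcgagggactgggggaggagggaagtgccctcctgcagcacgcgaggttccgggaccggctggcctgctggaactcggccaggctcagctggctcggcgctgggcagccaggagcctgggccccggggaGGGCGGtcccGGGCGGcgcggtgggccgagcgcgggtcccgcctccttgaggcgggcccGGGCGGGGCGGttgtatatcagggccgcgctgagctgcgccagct
CDK4: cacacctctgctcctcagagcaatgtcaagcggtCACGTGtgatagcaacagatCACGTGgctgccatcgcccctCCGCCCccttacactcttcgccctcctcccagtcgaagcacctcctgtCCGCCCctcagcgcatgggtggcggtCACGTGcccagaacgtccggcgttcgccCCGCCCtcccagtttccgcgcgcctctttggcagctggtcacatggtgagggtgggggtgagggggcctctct

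A promoter was listed for 6 of the 10 genes (CCND3, CDK4, CDK6, CDKN1A, CDKN1B and CDKN2B), and those of CCND1, CCND2, CDK2 and CDKN1C were not used here. All 6 held the GC box, which 42.3% of 27305 promoters in the same window hold. Bases G and C made up 64.4% to 80% of the 6 windows, and the share among promoters of like composition was not computed. CDKN1B held 1 copy of the GC box, CDK4 3 copies and CDKN1A 4 copies, of which the last pair shares a base. The E-box CACGTG occurred 3 times before CDK4 and in none of the other 5, and 6.49% of all promoters hold it. The E2F motifs TTTGGCGC and TTTCGCGC, the cyclic AMP element TGACGTCA, the interferon-stimulated response element and the TATA box TATAAA were not found in any of the 6 windows. Of all promoters 0.996%, 1.77%, 3.07% and 11.1% hold these in turn. These are matches of letters and show no binding.

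The factors that act on these genes included the only gene of the related lists that passed. IRF1, an interferon-induced transcription factor known to activate CDKN1A, read 7.83 and 7.64 in the control group and 10.35 and 10.56 with fb-PMT. It rose 6.57-fold (log2 difference 2.72, SE 0.17, limma adjusted p = 0.0179), with an interval of 4.94-fold to 8.75-fold. The control values of IRF1 were not far above the negative controls, which lay at 7.38 and 7.22 on those arrays. CDKN1A itself had the overlapping values given above. The call for IRF1 held without control replicate 1 (adjusted p = 0.0421) but not without control replicate 2 (0.0582), fb-PMT replicate 1 (0.268) or fb-PMT replicate 2 (0.284), while its log2 difference stayed between 2.61 and 2.82. Of the 32 measured factors, 1 passed, against 0.0979% of all clusters, and 18 were above and 14 below 0. In limma's test 6 had an unadjusted p under 0.05, 3 higher and 3 lower, beside 11.2% of all clusters. The list's median was 0.11, beside -0.017 over all clusters, and 8 of the factors had no array above the negative controls.

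MYC, the growth regulator that activates CDK4 and CCND2 and represses CDKN1A, read 12.45 and 12.44 in the control group and 12.10 and 12.13 with fb-PMT. Its groups did not overlap and its replicates were within a few hundredths of each other. The log2 difference of -0.33 (SE 0.14, 1.26-fold lower) did not pass limma's test (adjusted p = 0.48). That SE also draws on the spread of all clusters and is wider than the gaps between MYC's replicates.

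The targets of the G1 kinases come next in the pathway. Among 18 pocket proteins, E2F and DP factors and subunits of the complex they form with LIN proteins, 0 passed in limma's test. An unadjusted p under 0.05 was reached by 2, both lower, beside 11.2% of all clusters. RB1, the substrate of CDK4 and CDK6, read 11.57 and 11.74 against 11.89 and 12.05 with fb-PMT, a log2 difference of 0.32 (limma adjusted p = 0.531). E2F1, an activating factor that RB1 holds in check, read 9.18 and 9.47 against 9.63 and 9.56, a log2 difference of 0.27 (adjusted p = 0.596) that was 0.13 without control replicate 1 and 0.41 without control replicate 2. For both genes the fb-PMT arrays were higher on each replicate. LIN54 and LIN9, subunits of that complex, were at 0.36 and 0.35 with all arrays, and at 0.16 and 0.15 without control replicate 1, below RB1 at 0.23. E2F5, a repressive factor, was at -0.57 (limma adjusted p = 0.445), and at -0.32 without control replicate 1. LIN37 was at -0.41 (adjusted p = 0.432), and at -0.50 without control replicate 1, so the order of these genes rests on single arrays. The 18 genes divided into 10 above and 8 below 0, with a median of 0.082.

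Cyclin E and the other regulators of G1 gave no call. CCNE1 read 9.48 and 9.05 in the control group and 9.09 and 9.24 with fb-PMT, and CCNE2 read 10.14 and 9.99 against 10.18 and 10.00. Both overlapped between groups, with log2 differences of -0.10 (limma adjusted p = 0.888) and 0.028 (adjusted p = 0.966), and both took the opposite sign when certain single arrays were left out, CCNE1 without control replicate 1 (0.11) and CCNE2 without control replicate 2 (-0.044) or fb-PMT replicate 1 (-0.061). Of the 11 measured genes of that list, 0 passed in limma's test, and their median was 0.029. An unadjusted p under 0.05 was reached by 0, beside 11.2% of all clusters. CNPPD1, a cyclin-like gene (0.32), and CCNC, the cyclin of the Mediator kinase (0.13), had the largest differences among those whose groups did not overlap.

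Protein turnover sets much of the level of cyclins and inhibitors, and transcript arrays see only the genes of that machinery. Of 18 genes for ubiquitin ligases and their partners, 0 passed in limma's test. An unadjusted p under 0.05 was reached by 1, beside 11.2% of all clusters. That gene was AMBRA1, the adaptor that directs D-type cyclins to degradation, which read 11.49 and 11.44 in the control group and 11.90 and 11.84 with fb-PMT. Its log2 difference of 0.40 (SE 0.15, 1.32-fold higher) had an adjusted p of 0.412 in limma's test. SKP2, the F-box protein that directs CDKN1B to degradation, read 11.45 and 11.22 against 11.29 and 11.35, which overlapped (log2 difference -0.018, adjusted p = 0.979, and 0.097 without control replicate 1 or 0.0085 without fb-PMT replicate 1). RBX1, the RING subunit shared by these ligases, was at 0.23, and CUL4A, a scaffold of the ligase that degrades licensing factors, at -0.14 (-0.055 without control replicate 1 and -0.22 without control replicate 2). The median of the list was 0.0089, with 9 genes above and 9 below 0.

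Genes further along the cycle gave no call in limma's test either. Of 26 measured E2F targets of the G1/S transition, 0 passed and 0 had an unadjusted p under 0.05, beside 11.2% of all clusters. The intervals of all 26 lay within a 2-fold difference either way. That held for 93% of the clusters above the negative controls on both arrays of a group. MCM10 is outside those clusters, being above the negative controls only on control replicate 2. None of the 26 was below them on all arrays. Their median was -0.0079, with TK1, thymidine kinase, at 0.12, and MYBL2, a cell cycle transcription factor, and UHRF1, a partner of DNA methylation, at -0.36 and -0.32. TK1 was at 0.046 without control replicate 1 and at 0.20 without control replicate 2, and UHRF1 at -0.18 without fb-PMT replicate 1. Of 19 G2/M genes, 0 passed and 1 had an unadjusted p under 0.05, beside 11.2% of all clusters. That gene was CDC25B, a phosphatase that activates mitotic CDK1 (-0.39, limma adjusted p = 0.432). In this list 14 genes were below 0, and 26.3% were above 0, beside 47.3% of all clusters. Both fb-PMT arrays were under both control arrays in 10, beside 22.3% of all clusters. The median was -0.083. Separate groups in either direction were found in 63.2% of this list, beside 42.6% of all clusters. Over the related lists that share ran from 27.3% (other G1 regulators) to 77.8% (pocket proteins, E2F and DP factors), so this list does not stand out. BUB1B, a spindle checkpoint kinase, was at -0.32. CDC25C, another phosphatase of the family, was at 0.37, and WEE1, the kinase that opposes it, at 0.14, or 0.0795 without fb-PMT replicate 2. MKI67, the proliferation marker, read 14.05 and 14.09 against 13.99 and 13.75, a log2 difference of -0.20 (limma adjusted p = 0.68), which was -0.083 when fb-PMT replicate 2 was left out and -0.32 when fb-PMT replicate 1 was.

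Cyclins and kinases outside the G1 step were compared in the same way. Of 29 measured genes 0 passed in limma's test. An unadjusted p under 0.05 was reached by 2, both higher, beside 11.2% of all clusters. CCNG2, an atypical cyclin linked to cell cycle arrest, read 8.18 and 8.24 in the control group and 8.99 and 9.04 with fb-PMT. The log2 difference of 0.81 (SE 0.15, 1.75-fold higher) was many times the gap between replicates, and it missed the threshold in limma's test (adjusted p = 0.203). With an intensity trend in the variance CCNG2 passed (limma adjusted p = 0.0332, where 1.88% of clusters were called). It also passed with only clusters above the negative controls tested (adjusted p = 0.0157, 3.46% called). In 9 of 12 alternatives it did not pass. Among these were the replicate number as a block (adjusted p = 0.318), quantile normalization (0.22) and leaving out the lowest 30% of clusters (0.11). Its log2 difference was 0.78 to 0.84 when 1 array was left out. CABLES1, an adaptor between kinases, was at 0.39. CDK12, a kinase of transcription elongation, was at -0.33 (-0.14 without control replicate 2 and -0.52 without control replicate 1), and CCNL1, a cyclin of splicing kinases, at -0.32. None of the G1 genes passed with the intensity trend or with the restriction to clusters above the negative controls. The restricted fit tested only the 7 G1 genes above them. The adjusted p of CDKN1B was 0.128 with the trend and 0.137 with the restriction.

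**Figure D3:**
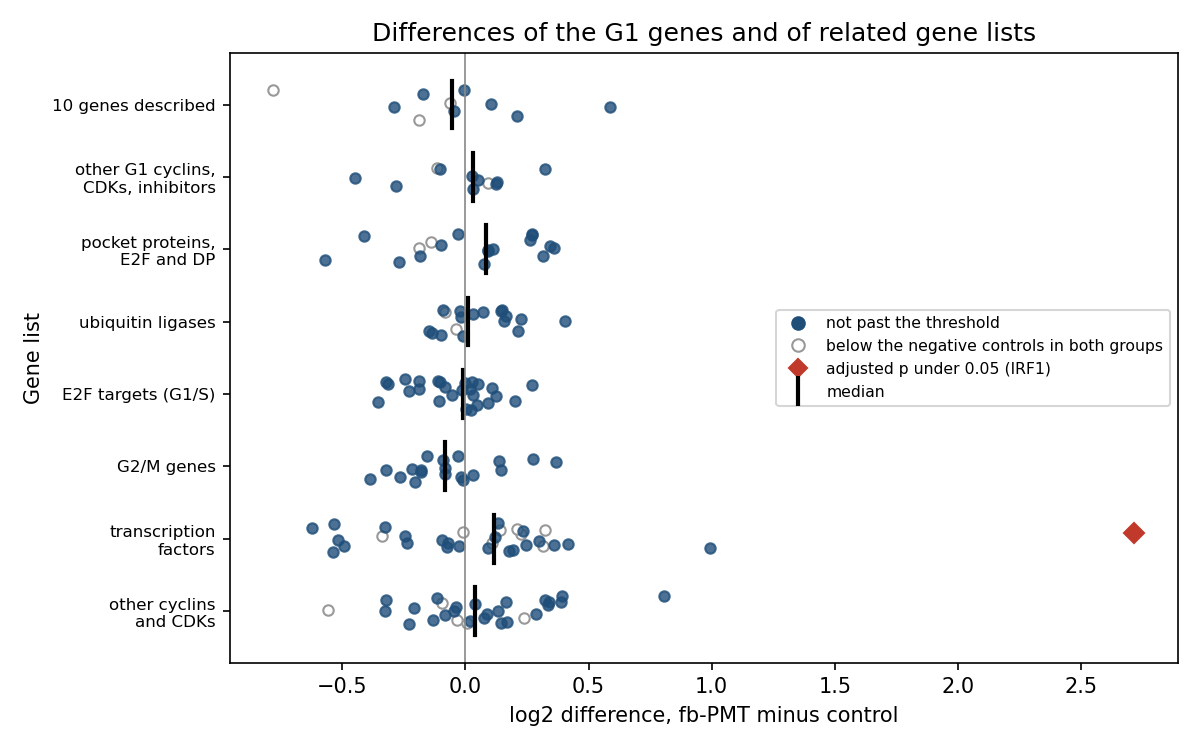
Log2 differences, fb-PMT minus control, of the 10 G1 genes and of 7 related gene lists, with a point for each gene, open points for genes below the negative controls in both groups, a bar at the median and a diamond for the gene with an adjusted p under 0.05. List medians lie between -0.083 and 0.11, and IRF1 at 2.72 stands apart from all other genes shown.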

How the data were processed

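Total RNA of 4 SUIT2 samples was hybridised to whole-transcript arrays. Per the submitters' processing notes, the authors computed log2 values per probe set by RMA with Transcriptome Analysis Console 4.0.1.36. RMA compresses differences of dim probe sets and removes shifts shared by most genes. Which RMA variant and genome build they used is not given in the sources used here, and array features are printed without coordinates. Of 24351 probe sets, 2903 control probe sets were left out. The platform annotation named 17709 of the 21448 clusters, and all those Entrez identifiers matched RefSeq. A linear model in limma 3.58.1 (R 4.3.3, moderated variances, no trend, no block) compared fb-PMT with control, with two-sided p-values adjusted by Benjamini-Hochberg and a threshold of 0.05, with 2 residual and 3.72 prior degrees of freedom. An exact permutation test of 2 against 2 arrays cannot go below p = 0.333. The fit was also run on simulated data whose noise was drawn from its own variance model. That run checked the code and cannot test the model's assumptions.

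The members and gene lists were chosen with earlier results of these data known. Related lists held 156 genes, of which 148 were measured. All 10 members are named, and from each list those that passed (up to the 2 largest rises and falls), or otherwise the 2 largest differences each way among genes above the negative controls with separate groups. CCNE1, CCNE2, RB1, E2F1, SKP2, MYC and MKI67 are always named. Motifs were searched in the RefSeq table of GRCh38.p14.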

Additional observations from a re-analysis of the deposited data

How the results depend on the processing

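Over 11 or 12 alternatives each, the differences of the 10 G1 genes kept their sign and stayed short of the threshold in 112 of 117 results, and 0 of the genes fitted passed in any of them. The 5 others were changes of sign when 1 array was left out: CDK2 ran from -0.035 to 0.024, CDKN1A from -0.39 to 0.044 and CDKN1C from -0.14 to 0.019. CCNE1 (-0.32 to 0.11), CCNE2 (-0.061 to 0.12) and SKP2 (-0.13 to 0.097) did the same. CCND2, CDKN1C and CDKN2B did not enter the fit restricted to clusters above the negative controls. The count of genes with separate groups was 7, and 7 to 10 when 1 array was left out, where separation is easier to reach. The count of clusters past the threshold was 21. It was 403 with an intensity trend, 394 with a trend and robust variances, 67 without the lowest 30% of clusters, 318 with only clusters above the negative controls, and 1 to 9 when 1 array was left out. Among the factors acting on the G1 genes, 1 passed, and 3 did with a trend, with a trend and robust variances, or above the negative controls (IRF1, EGR1 and FOSL1). EGR1 entered the last of these only through its fb-PMT arrays, so its pass there is no support. The count was 0 to 1 when 1 array was left out. Among the other cyclins and kinases 1 passed in each of those 3 settings, CCNG2. The cause of these shifts was not tested. With the replicate number as a block, 1 cluster passed in all, 0 among the factors, and IRF1 had an adjusted p of 0.0814. The labels do not say that the numbers pair arrays, and deviations of same-numbered arrays correlated with r = 0.042. With so few arrays, this correlation cannot decide whether same-numbered arrays were handled together, so pairing was not settled. The block changed no call of the 10 genes. Renewed quantile normalization and median centring moved the median of all clusters to at most 0.0148 from 0. Depth does not apply to arrays. The number of arrays limits precision, and 3 of the 10 genes had signal under the negative controls.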

Other observations

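The values of 4 further genes are given here, outside the rule for named genes and chosen after they were seen. FOSL1, an AP-1 subunit that follows ERK signalling, read 14.15 and 14.08 in the control group and 13.53 and 13.46 with fb-PMT (log2 difference -0.62, limma adjusted p = 0.28). JUN, another AP-1 subunit and an activator of CCND1, read 9.52 and 9.59 against 9.05 and 9.02 (-0.52, adjusted p = 0.348). EGR1, an immediate early factor, read 6.92 and 7.24 against 8.03 and 8.12 (0.99, adjusted p = 0.193). None of these 3 passed limma's test. With an intensity trend FOSL1 and EGR1 did (adjusted p = 0.00374 and 0.0348), where 1.88% of clusters were called. Neither passed with renewed quantile normalization, median centring or a replicate block. The control values of EGR1 were at the level of the negative controls, which lay at 7.38 and 7.22 on those arrays. CDC25A, the phosphatase that activates CDK2, read 9.08 and 8.81 against 8.88 and 8.11, which overlapped (-0.45, adjusted p = 0.6).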
